A study of Mus musculus with 24 samples.

Results

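The genes described here are 32 core genes of the synapse, taken from a list of names: proteins of the synaptic vesicle, the fusion machinery, the active zone, trans-synaptic adhesion and the postsynaptic scaffold. They were found by symbol among the 47069 gene IDs of the count files, and all 32 were present. By role, 19 are presynaptic and 13 are postsynaptic. The rule that lists them uses no measured value. All 32 passed the filter on low counts in both lines of mice, with 156 to 87238 counts per gene and library.

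At a chemical synapse, vesicles are loaded with transmitter, docked at the active zone and fused with the plasma membrane by SNARE proteins when calcium enters. Neurexins on the presynaptic membrane bind neuroligins across the cleft, and scaffold proteins of the DLG, SHANK and HOMER families hold receptors and signalling proteins in the postsynaptic density. In the hippocampus most of these synapses use glutamate, and the transcripts of both sides are made in the cell bodies of the neurons.

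Hippocampal messenger RNA from males 2 to 4 months old was sequenced in 18 libraries, in 6 groups of 3, and every library pooled tissue from 3 mice. Kdm5c, an X-linked gene, encodes a histone H3 lysine demethylase that acts at promoters and enhancers. In the constitutive line, Kdm5c -/- (KO) and Wild-type mice of a mixed C57 and 129 background were Non-treated or had explored a box with tubing and toys for 1 h (novelty). In the inducible line, kept on C57BL/6J, Kdm5c -/- (ifKO) mice carry floxed Kdm5c and the CaMKIIα-creERT2 driver, active in excitatory neurons of the forebrain, and were compared with control mice, all Non-treated. Other cells of the ifKO hippocampus keep the gene. The sources used here do not say whether the control animals had Cre or were given tamoxifen. The constitutive line was read as single reads of 50 nt on 1 flowcell and the inducible line as paired reads of 75 nt on another, so line, background, read type and flowcell cannot be told apart.

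Libraries held 16 to 45.6 M counts in genes. Kdm5c was counted over the whole gene, with mean levels of 75.3 CPM (counts scaled to 1 M counts per library) in untreated wild type, against 75.8 in untreated KO, so its count gives no check of the genotype labels. Among 12 immediate early genes, which neurons switch on with activity, 4 rose after novelty in wild type (0.384% of all genes passed). After novelty 1 rose in KO (0.11%) and 9 over both genotypes (1.35%). None passed in the interaction, and 3 stood at an unadjusted p under 0.05 (3.43% of all genes). In untreated KO none of the 12 passed. All 12 were above 0 there (50.5% of all genes), with a median log2 fold change of 0.537. Of them 7 stood at an unadjusted p under 0.05 (8.66% of all genes). Their summed level was 266, 594 and 469 CPM in untreated wild type, against 829, 458 and 773 CPM in untreated KO. These groups overlap, and wild-type library 1 was the lowest. Markers of hippocampal fields were present in all libraries: the summed level of 8 dentate granule genes was 485 to 714 CPM, and 5 of 6 CA1 genes matched by name summed to 487 to 720 CPM. A list of 8 choroid plexus genes summed to 626 CPM in untreated KO library 2 and to 400 CPM in control library 1, against 36.4 to 81.1 CPM elsewhere. After novelty, library 1 of wild type and library 2 of KO deviated from their groups over the synaptic genes, and the main values below are also given without both. Without both, 7 immediate early genes rose in wild type, where 2.72% of all genes passed, and 1 in KO, where 0.381% did.

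KDM5C is known to sit at CpG-rich promoters, and CREB is a factor that switches on genes with neuronal activity, so the promoters were read for CG pairs and, on both strands, for the CREB element CRE (TGACGTCA). The RefSeq promoter table (GRCm38.p6), which spans 250 bases before to 50 after each start, held 41 windows for 25 of the 32 genes. Syn3, Snap25, Vamp2, Nrxn2, Nlgn3, Shank1 and Shank2 were not matched. The median number of CG pairs was 14 per window, with a range of 1 to 49, and it was 7 over all 32851 windows of the table. CRE occurred in 1.79% of all windows and, among these genes, in the single window of Syn1. These are matches of letters, and no binding was measured.

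Windows of 4 genes are shown, 5′ to 3′ on the strand of the gene, because the values below turn on Slc17a6, Nlgn1, Homer3 and Syn1. For Slc17a6 and Nlgn1, which have 2 windows each, it is the one with more CG pairs. Capitals mark the CG pairs in Slc17a6 (chr7:51621580-51621879, plus strand), Nlgn1 (chr3:26331860-26332159, minus strand) and Homer3 (chr8:70282749-70283048, plus strand), which hold 8, 14 and 19 of them. In GENCODE M21 the genes Slc17a6 (ENSMUSG00000030500), Nlgn1 (ENSMUSG00000063887) and Homer3 (ENSMUSG00000003573) span chr7:51622006-51671119, chr3:25426215-26332460 and chr8:70282827-70294361. In Syn1 (chrX:20920869-20921168, minus strand), with 33 CG pairs, capitals mark the CRE.
Slc17a6: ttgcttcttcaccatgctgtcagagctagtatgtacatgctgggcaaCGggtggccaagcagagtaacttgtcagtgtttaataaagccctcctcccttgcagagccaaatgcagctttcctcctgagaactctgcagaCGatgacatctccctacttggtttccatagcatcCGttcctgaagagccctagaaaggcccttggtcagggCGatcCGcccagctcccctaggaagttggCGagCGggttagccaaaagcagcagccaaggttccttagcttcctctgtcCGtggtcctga
Nlgn1: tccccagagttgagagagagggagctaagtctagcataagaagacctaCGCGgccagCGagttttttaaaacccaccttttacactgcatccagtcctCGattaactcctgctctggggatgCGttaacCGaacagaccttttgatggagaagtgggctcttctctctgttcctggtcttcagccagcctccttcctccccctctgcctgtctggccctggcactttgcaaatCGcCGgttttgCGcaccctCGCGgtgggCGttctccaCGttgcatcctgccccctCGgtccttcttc
Homer3: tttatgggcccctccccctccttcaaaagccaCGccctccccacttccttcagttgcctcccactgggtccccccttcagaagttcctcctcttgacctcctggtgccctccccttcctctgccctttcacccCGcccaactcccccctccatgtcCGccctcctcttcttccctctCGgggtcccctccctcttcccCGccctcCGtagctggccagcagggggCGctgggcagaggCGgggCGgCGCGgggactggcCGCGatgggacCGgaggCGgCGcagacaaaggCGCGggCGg
Syn1: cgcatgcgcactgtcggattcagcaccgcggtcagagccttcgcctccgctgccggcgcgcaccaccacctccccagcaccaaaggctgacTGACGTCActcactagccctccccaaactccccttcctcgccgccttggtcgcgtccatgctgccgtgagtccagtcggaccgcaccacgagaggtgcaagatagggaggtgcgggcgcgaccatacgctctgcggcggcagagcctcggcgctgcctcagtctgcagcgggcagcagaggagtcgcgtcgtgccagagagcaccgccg

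The order of the genes by level is given per kilobase of exon (CPM per kb) in untreated wild type, as mean ± SD over 3 libraries. Neurogranin (Nrgn), a calmodulin-binding protein of dendrites and spines, was the highest at 437 ± 43.8 CPM per kb. Below it came the complexin Cplx2 at 330 ± 7.90, the SNARE protein Snap25 at 271 ± 16.7, and the vesicle protein synaptophysin (Syp) at 238 ± 5.64 CPM per kb. The vesicle SNARE Vamp2 and the vesicular glutamate transporter Slc17a7 followed at 231 ± 3.98 and 231 ± 6.23 CPM per kb, and their library ranges overlapped each other.

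Postsynaptic scaffolds came lower in this order, with Shank1 at 66.5 ± 1.54 and Dlg4, which encodes PSD-95, at 55.5 ± 1.62 CPM per kb. The large active zone proteins Bsn and Pclo stood at 35.8 ± 0.916 and 12.7 ± 1.44 CPM per kb. At the bottom were the adhesion gene Nlgn1 at 6.58 ± 0.576, the second glutamate transporter Slc17a6 at 3.54 ± 1.23 and the synapsin Syn3 at 0.791 ± 0.0903 CPM per kb. Of 31 pairs of neighbours in the order, 10 overlapped in their library values. The next levels are CPM without the division by length, and are compared only within a gene.

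**Figure D1:**
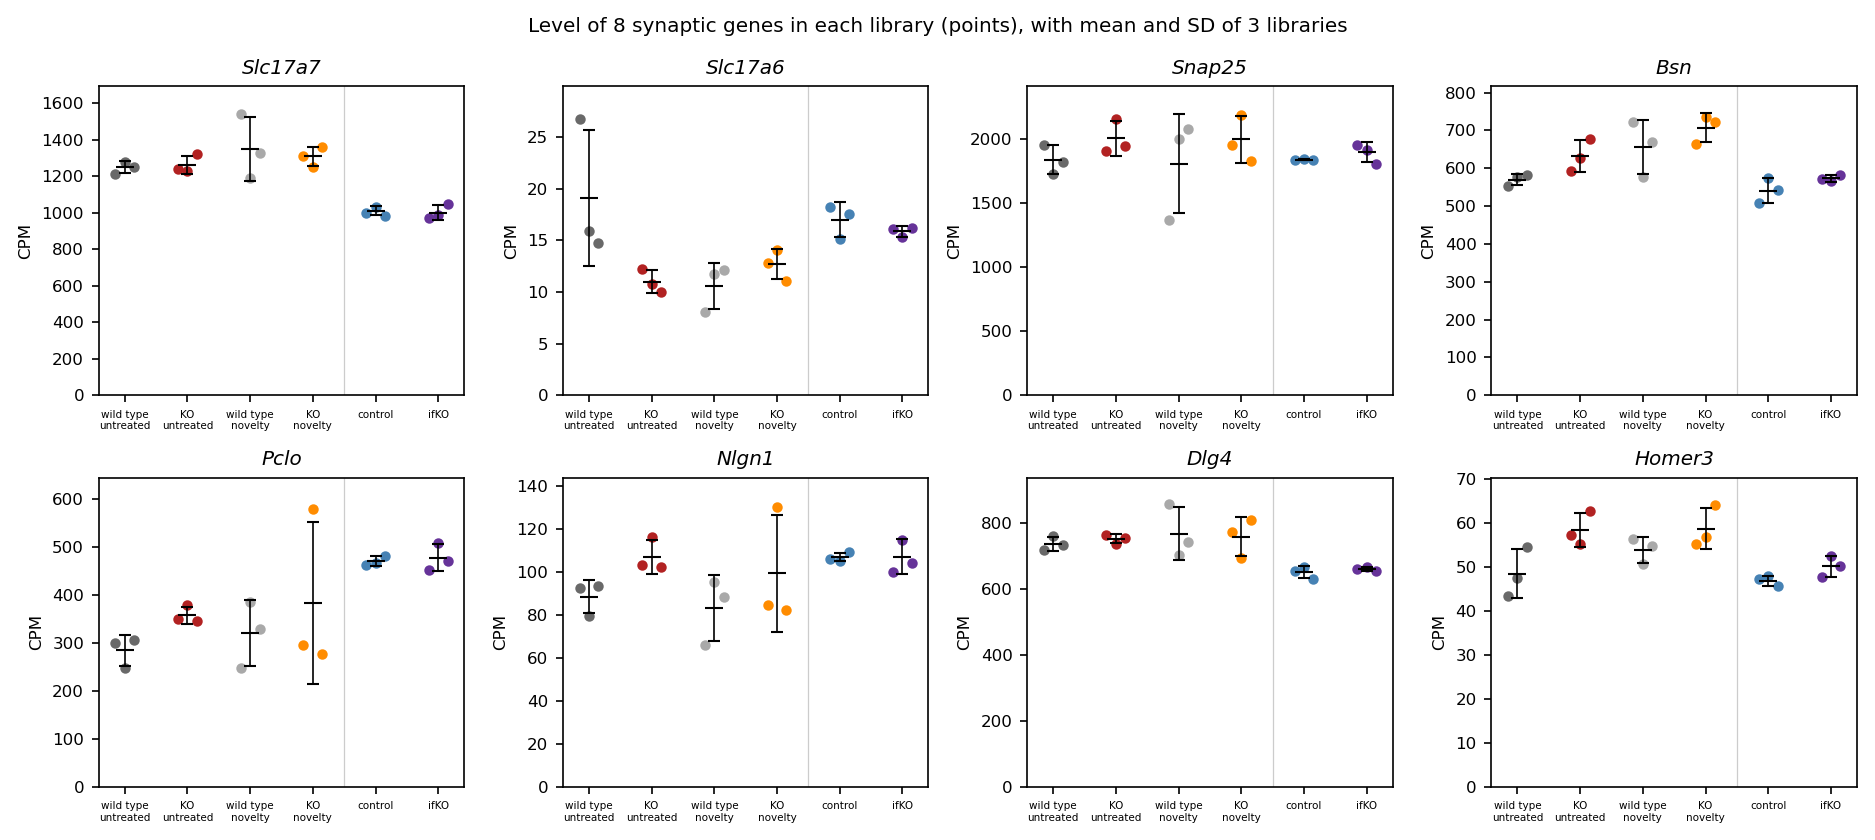
Level in CPM (vertical axis, from 0) of 8 synaptic genes in each of 18 libraries (points), by group, with mean and SD of 3 libraries. Slc17a6 is highest in untreated wild-type library 1 at 26.8 CPM, and Snap25 at 1370 CPM and Pclo at 579 CPM show the 2 novelty libraries that stand apart.

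No synaptic gene passed the test (edgeR quasi-likelihood, adjusted p under 0.05) between KO and wild type, untreated or after novelty, or between ifKO and control. The same held for novelty in either genotype, for the interaction of genotype and novelty, and for the difference between the KO and ifKO effects. Of all tested genes 1.24% passed between untreated KO and wild type, 1.34% after novelty, 2.81% over both treatments and 0.645% between ifKO and control. For novelty 0.384% passed in wild type, 0.11% in KO and 1.35% over both genotypes. The interaction called 0.0% of genes, with 3.43% at an unadjusted p under 0.05, and the difference between the 2 mutants called 0.114%. At an unadjusted p under 0.05 stood 3 of the 32 synaptic genes in untreated KO (8.66% of all genes), 1 in the KO comparison after novelty (8.73%) and 2 in ifKO (6.64%).

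The 95% intervals of the log2 fold changes were narrow for most of the genes. Between untreated KO and wild type the interval of 29 of the 32 genes lay within a 1.5-fold change in either direction, and the exceptions were Slc17a6, Pclo and Nlgn1. After novelty it was again 29 of 32, with the same exceptions. Between ifKO and control all 32 lay within 1.5-fold, and 29 lay within 1.2-fold, the exceptions being Slc17a6, Nrxn2 and Nrgn. The median half-width of the interval was 0.18 log2 units in either KO comparison and 0.08 in ifKO. In bulk tissue fewer cells of a type and less RNA per cell cannot be told apart, and with pooled mice the p-values measure the spread between pools.

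**Figure D2:**
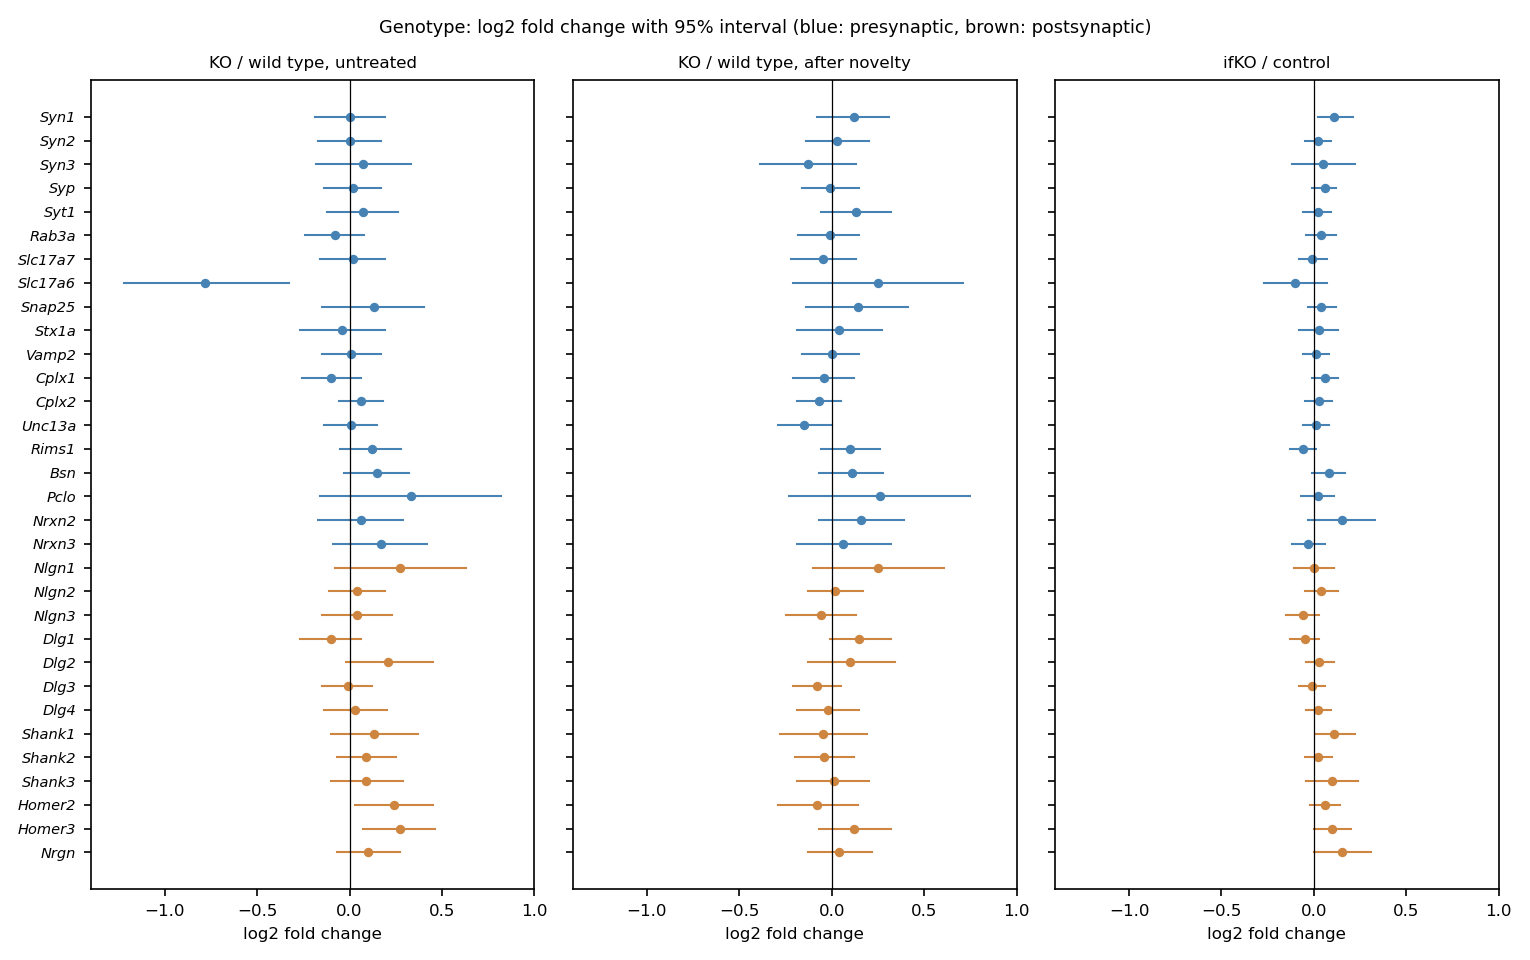
Log2 fold change (horizontal axis) with its 95% interval for each of the 32 genes, KO against wild type untreated and after novelty, and ifKO against control; blue genes are presynaptic and brown genes postsynaptic. Slc17a6 lies at -0.78 in untreated KO, and the intervals are narrowest in ifKO.

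Among the 8 vesicle genes, none passed in untreated KO, and the log2 fold changes ran from -0.78 to 0.07. Slc17a7, the glutamate transporter of most hippocampal excitatory terminals, measured 1210, 1280 and 1250 CPM in untreated wild type, against 1240, 1230 and 1320 CPM in untreated KO. These values overlap, and the log2 fold change was 0.02 ± 0.08 (SE; n = 3 against 3, adjusted p = 0.974). Syn1 and Syn2, which tether vesicles, had log2 fold changes of 0.00, and Rab3a, a GTPase of docking vesicles, had -0.08 with KO libraries all below wild type.

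Slc17a6, the transporter that marks thalamic and subcortical terminals and is sparse in the hippocampus, had the largest difference. It measured 26.8, 15.9 and 14.7 CPM in untreated wild type, against 12.2, 10.8 and 10 CPM in untreated KO. All 3 KO libraries lay below all 3 wild-type libraries, and wild-type library 1 was far above the other two. The log2 fold change was -0.78 ± 0.21 with an adjusted p of 0.116. It passed with DESeq2 (adjusted p = 0.0135), with all genes kept whatever their counts (0.000212) and with GC and length offsets (0.0228), which remove trends with GC content and transcript length. Of all genes 1.67%, 1.21% and 2.14% passed in these fits. Without wild-type library 1 the log2 fold change of Slc17a6 was -0.47 with an adjusted p of 0.471. The counts behind these values were 222 to 778 per library over the series. A list of 12 thalamus and habenula genes, of which Gbx2 and Pou4f1 were at 0 in some libraries, summed to 197 to 215 CPM in untreated wild type. In untreated KO it summed to 187 to 194 CPM. Wild-type library 1 was at 200 CPM, below library 2 at 215 CPM. Only Calb2, which is also an inhibitory neuron marker, and the low Tnnt1 were lower in all KO libraries. Calb2 measured 30.6, 42.7 and 37.4 CPM in wild type, against 25.2, 25.5 and 22.9 CPM in KO. The other genes of the list overlapped between the groups, and the part of the list in the Slc17a6 result was not tested.

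The 5 SNARE and complexin genes ran from -0.10 to 0.13 in untreated KO. Snap25, a SNARE protein of the plasma membrane, measured 1960, 1730 and 1820 CPM in wild type, against 1910, 2160 and 1950 CPM in KO. The groups overlap, with a log2 fold change of 0.13 ± 0.13 (adjusted p = 0.851). Vamp2 differed by 0.01 ± 0.07 and the syntaxin Stx1a by -0.04 ± 0.11. Cplx1, which clamps and promotes fusion, was lower in all KO libraries (-0.10 ± 0.08, adjusted p = 0.807).

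All 4 active zone genes were above 0 in untreated KO, with a median of 0.132. Bsn, a giant protein that organises the release site, measured 554, 576 and 581 CPM in wild type, against 593, 627 and 677 CPM in KO. The groups did not overlap, yet the difference of 0.15 ± 0.08 had an adjusted p of 0.674, and with GC and length offsets it was -0.02. Its partner Pclo was at 248 to 307 CPM in wild type, against 346 to 378 CPM in KO (0.33 ± 0.23, adjusted p = 0.783), and 0.13 with the offsets. The release factor Unc13a and the tether Rims1 had log2 fold changes of 0.01 and 0.12. Of the neurexins, Nrxn2 differed by 0.06 ± 0.11 and Nrxn3 by 0.17 ± 0.12, both with overlapping groups.

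On the postsynaptic side 11 of 13 genes were above 0 in untreated KO. The neuroligin Nlgn1, which acts at excitatory synapses, measured 92.4, 79.5 and 93.3 CPM in wild type, against 103, 116 and 102 CPM in KO. The KO libraries were all higher, with a log2 fold change of 0.27 ± 0.16 and an adjusted p of 0.731, and it was 0.10 with GC and length offsets. Nlgn2, the neuroligin of inhibitory synapses, and Nlgn3 differed by 0.04 each. For Nlgn3, 41.2% of its exon bases are shared on the same strand with the gene model Gm21986, so its count is uncertain.

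Dlg4 measured 716, 758 and 731 CPM in untreated wild type, against 764, 736 and 753 CPM in untreated KO. The groups overlap (0.03 ± 0.08, adjusted p = 0.949). Its relatives Dlg1, Dlg2 and Dlg3 had log2 fold changes of -0.10, 0.21 and -0.01. Shank3, a master scaffold linking receptors to actin, measured 275, 299 and 288 CPM in wild type, against 298, 280 and 342 CPM in KO. Its groups overlap as well (0.09 ± 0.09, adjusted p = 0.847), and Shank1 and Shank2 had 0.13 and 0.09 with KO libraries all above wild type. With the offsets Shank1 was at 0.02.

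The 2 HOMER genes, whose proteins link metabotropic glutamate receptors to SHANK, had the largest postsynaptic differences together with Nlgn1. Homer3 measured 43.4, 47.5 and 54.4 CPM in untreated wild type, against 57.1, 55.2 and 62.7 CPM in untreated KO. The groups lie next to each other without overlap, and the log2 fold change was 0.27 ± 0.09 (unadjusted p = 0.0113, adjusted p = 0.321). Of its exon bases 25.4% lie opposite Ddx49, which differed by 0.01, and the sources used here do not say how strand was treated in the counting. Homer2 was at 114 to 144 CPM in wild type, against 152 to 154 CPM in KO (0.24 ± 0.10, adjusted p = 0.488). Nrgn measured 569, 641 and 695 CPM in wild type, against 705, 639 and 697 CPM in KO, which overlap (0.10 ± 0.08, adjusted p = 0.818).

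Counted together, 25 of the 32 genes were above 0 in untreated KO, against 50.5% of all tested genes, with a median of 0.063 against 0.001 over all genes. The median was 0.027 without wild-type library 1 and 0.023 without KO library 3. KO libraries were all higher for 9 genes (Bsn, Pclo, Nlgn1, Nlgn3, Dlg2, Shank1, Shank2, Homer2 and Homer3), where 11.6% of all genes had such a separation. They were all lower for 3 genes (Rab3a, Slc17a6 and Cplx1), against 9.35% of all genes. The median was 0.094 over the 13 postsynaptic genes and 0.018 over the 19 presynaptic genes. With 1 library left out the postsynaptic median ran from 0.057, without KO library 3, to 0.142, without KO library 2, and the presynaptic median from 0.009 to 0.038. With GC and length offsets the order turned, to 0.024 postsynaptic and 0.047 presynaptic, and the median over all 32 was 0.035. The longest transcripts of the postsynaptic genes have a median length of 7365 nt and those of the presynaptic genes 4775 nt.

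The mean level of the 13 postsynaptic genes, as log2(CPM + 0.5), was 7.71 to 7.77 in untreated wild type, against 7.82 to 7.88 in untreated KO, which do not overlap. The mean level of the 19 presynaptic genes was 8.54 to 8.62 and 8.55 to 8.60. Their difference was 0.88, 0.84 and 0.77 in wild type, against 0.70, 0.77 and 0.72 in KO, so wild-type library 3 met the highest KO library at 0.77. Markers of other cells also separated these groups. The summed level of 10 astrocyte markers was 5710 to 6230 CPM in wild type, against 6660 to 6890 CPM in KO. The sum of 11 oligodendrocyte lineage markers was 4110 to 4510 CPM in wild type, against 3200 to 3720 CPM in KO. None of these markers was at 0, and their part in the synaptic values was not tested.

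**Figure D3:**
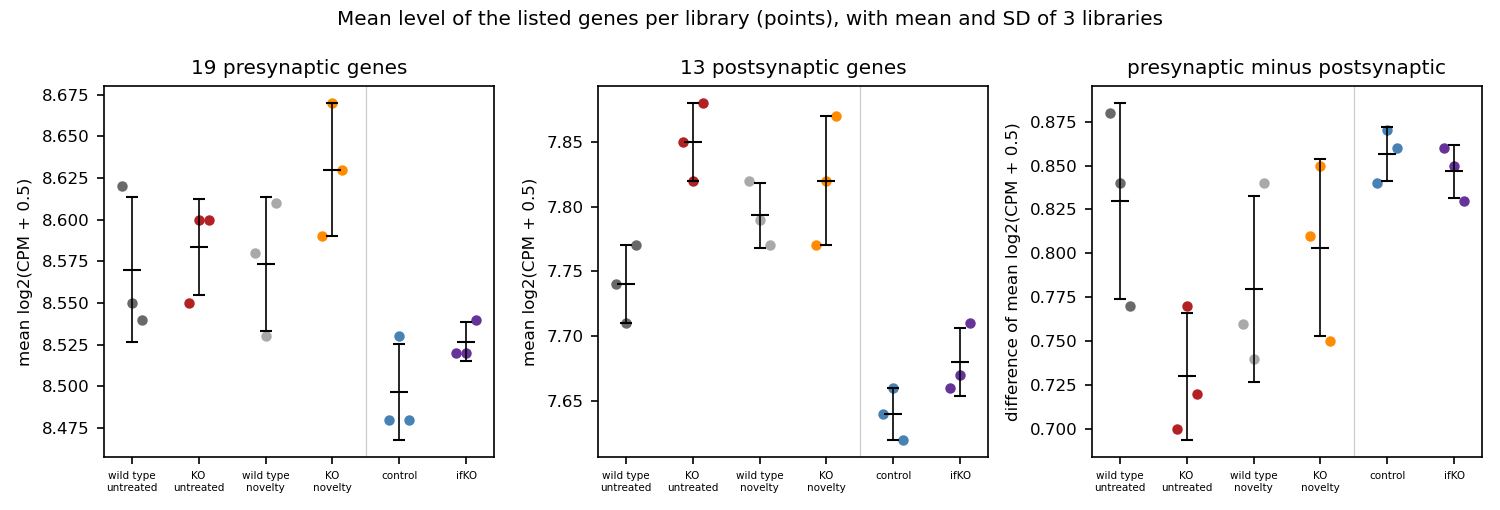
Mean log2(CPM + 0.5) of the 19 presynaptic and 13 postsynaptic genes and their difference (vertical axes) in each library (points) by group, with mean and SD of 3 libraries. The postsynaptic mean is 7.71 to 7.77 in untreated wild type, against 7.82 to 7.88 in untreated KO, and the difference lies between 0.83 and 0.87 in both groups of the inducible line.

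Between KO and wild type after novelty 18 of 32 genes were above 0 against 50.6% of all genes, with a median of 0.025. The groups separated for Dlg1, higher in KO (6.64% of all genes), and for Cplx2, lower in KO (4.56%). No gene separated in the same direction in both treatments, which 3.82% of all genes did, and 17 of 32 had the same sign in both, against 60.2% of all genes. The postsynaptic median was 0.007 and the presynaptic median 0.039, and without both libraries that stand apart they were 0.072 and 0.062. The median over all 32 ran from -0.038, without wild-type library 2, to 0.069, without wild-type library 1, and it was also below 0 without wild-type library 3 (-0.002) or KO library 3 (-0.032). The smallest adjusted p was 0.565, for Unc13a at -0.15 ± 0.07. Without both libraries that stand apart Unc13a was at -0.05 (adjusted p = 0.674) and Dlg1 at 0.05, against 0.15 with them. Slc17a6 was at 8.07, 11.7 and 12.1 CPM in wild type, against 12.8, 14.1 and 11.1 CPM in KO, a difference of 0.25 ± 0.21 with the opposite sign to that in untreated mice.

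Nlgn1 after novelty measured 65.8, 95.1 and 88.1 CPM in wild type, against 84.7, 130 and 82.4 CPM in KO. The groups overlap, and both extremes come from the libraries that stand apart. The log2 fold change was 0.25 ± 0.17 (adjusted p = 0.787). With GC and length offsets it was 0.25 ± 0.05 with an adjusted p of 0.00579, where 2.2% of all genes passed. Over both treatments Nlgn1 differed by 0.26 ± 0.12 (adjusted p = 0.382). With the offsets this was 0.18 ± 0.03 (adjusted p = 0.0036), where 4.81% of all genes passed. Without both libraries that stand apart, and with no offsets, Nlgn1 was at 0.07 over both treatments (adjusted p = 0.601). Homer3 had the smallest adjusted p over both treatments, 0.169, at 0.20 ± 0.06. Without these libraries the difference after novelty turned sign for several genes, among them Nlgn1 (-0.13, adjusted p = 0.396), Pclo (-0.32, adjusted p = 0.0783, against 0.26 with them) and Snap25 (-0.10, adjusted p = 0.449, against 0.14), and that of Slc17a6 was 0.01 against 0.25. In this fit 21 of 32 genes were above 0 after novelty, the median was 0.067, and Syn1 passed at 0.27 with an adjusted p of 0.0341, where 4.26% of all genes passed.

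The inducible knockout gave the narrowest values. Of the 32 genes 24 were above 0, against 50.6% of all genes, with a median of 0.026, and the log2 fold changes ran from -0.10 to 0.15. Slc17a7 measured 1000, 1030 and 982 CPM in control, against 970, 987 and 1050 CPM in ifKO (-0.01 ± 0.04). Snap25 measured 1840, 1850 and 1840 CPM in control, against 1960, 1920 and 1810 CPM in ifKO (0.04 ± 0.03). Both pairs of groups overlap.

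Among the release site and scaffold genes of this line, Bsn measured 508, 573 and 543 CPM in control, against 572, 565 and 582 CPM in ifKO (0.08 ± 0.04, adjusted p = 0.788). Dlg4 measured 652, 667 and 630 CPM in control, against 660, 667 and 653 CPM in ifKO (0.02 ± 0.03, adjusted p = 0.948). Shank3 measured 234, 232 and 212 CPM in control, against 237, 221 and 270 CPM in ifKO (0.10 ± 0.06, adjusted p = 0.845). In each of these 3 genes the groups overlap. Nlgn1 was flat, at 106, 105 and 109 CPM in control, against 99.8, 115 and 104 CPM in ifKO.

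Nrgn in the inducible line measured 492, 537 and 472 CPM in control, against 520, 518 and 634 CPM in ifKO. The ifKO libraries overlap with control, and the third library sets the mean apart (0.15 ± 0.07, adjusted p = 0.75). Syn1 was the one gene higher in all ifKO libraries, at 394, 406 and 392 CPM in control, against 410, 415 and 464 CPM in ifKO. Its difference of 0.11 ± 0.04 had an adjusted p of 0.618, the smallest of the 32, and 6.55% of all genes separated this way. Nlgn3 was the one gene lower in all ifKO libraries (-0.06 ± 0.04), where 5.48% of all genes were. Without the low-count filter Nrxn2 (0.15, adjusted p = 0.00718), Shank1 (0.11, 0.0365) and Nrgn (0.15, 0.000363) passed in ifKO. That fit called 398 genes of all kinds, 1.39% of those tested, against 112 with the filter, and the cause of the surplus was not tested.

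Presynaptic and postsynaptic medians in ifKO were 0.025 and 0.034. The sign of the difference was the same in untreated KO and in ifKO for 23 of the 32 genes, against 56.9% of all genes, and in KO after novelty and ifKO for 16, against 55.6%. Tested directly, the untreated KO effect minus the ifKO effect passed for none of the genes, and the smallest adjusted p was 1.0. For Slc17a6 this difference was -0.67 ± 0.25, with an interval from -1.19 to -0.14. It shares wild-type library 1, and without that library it was -0.37. For Homer3 it was 0.17 ± 0.11 and for Nlgn1 0.28 ± 0.20, and both intervals include 0. For 29 of 32 genes the interval of the difference lay within 1.5-fold. Beside these values, the sum of 10 inhibitory neuron markers was 915 to 937 CPM in control, against 876 to 888 CPM in ifKO, and that of 10 astrocyte markers 5830 to 6030 CPM, against 6050 to 6150 CPM, and their part was not tested.

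Novelty did not move these genes past the test in either genotype. In wild type 24 of 32 were above 0 against 49.3% of all genes, with a median of 0.061, and in KO 20 of 32 were, against 51.5%, with a median of 0.016. With both libraries that stand apart left out, the wild-type count was 19 and the median 0.017, and in KO the count was again 20 with a median of 0.037. Wild-type novelty libraries were all higher for Cplx2, Unc13a, Dlg3 and Shank2, against 8.3% of all genes, and all lower for Slc17a6, against 7.7%. In KO they were all higher for Syn2 and Dlg1 (8.6% of all genes) and all lower for Nlgn3 (6.35%).

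**Figure D4:**
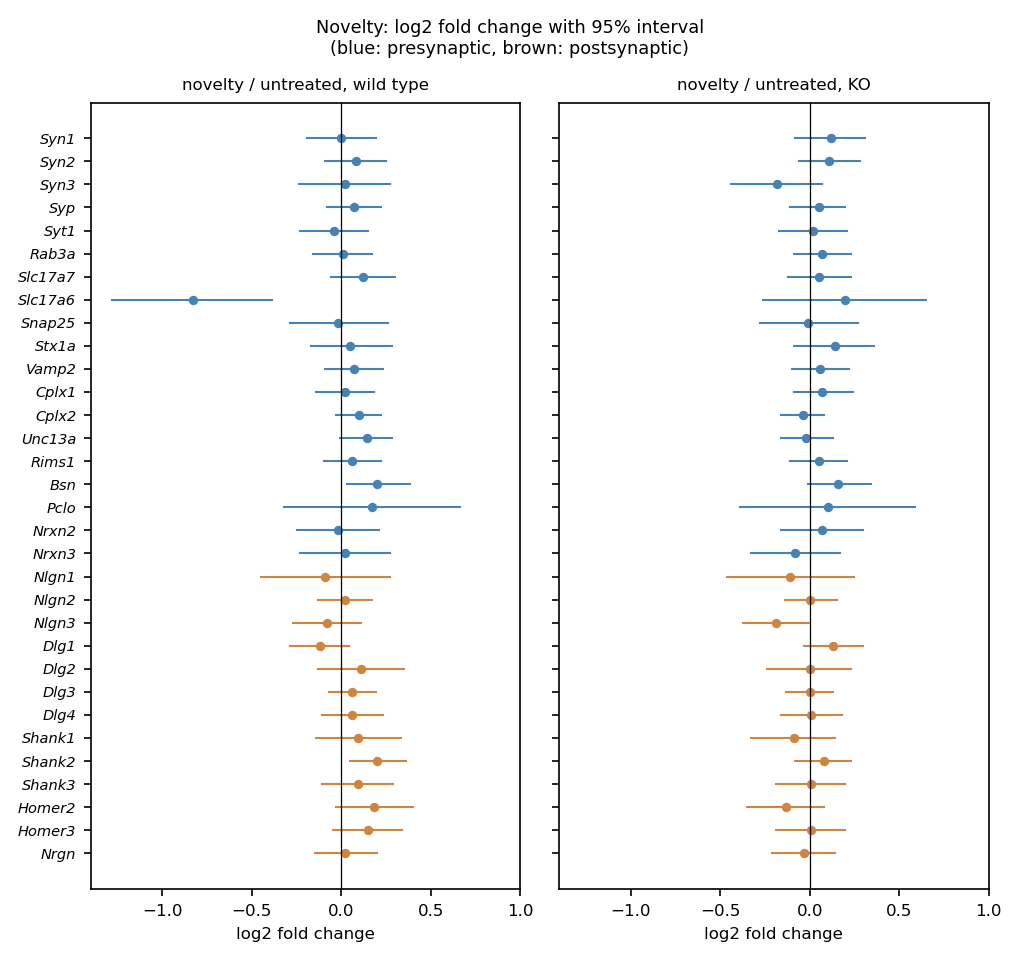
Log2 fold change (horizontal axis) with its 95% interval for each of the 32 genes, novelty against untreated in wild type and in KO; blue genes are presynaptic and brown genes postsynaptic. Slc17a6 lies at -0.83 in wild type and at 0.20 in KO.

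Bsn had the smallest adjusted p over both genotypes, with 722, 578 and 668 CPM in wild type, against 664, 736 and 722 CPM in KO after novelty. Against the untreated libraries this was 0.18 ± 0.06 (unadjusted p = 0.00715, adjusted p = 0.157), and 0.10 with GC and length offsets. Without both libraries that stand apart it was 0.13 (adjusted p = 0.204). Leaving out wild-type novelty library 2 gave 0.22 and an adjusted p of 0.0406. The scaffold Shank2 measured 253, 247 and 250 CPM untreated and 298, 276 and 289 CPM after novelty in wild type. The groups do not overlap, at 0.20 ± 0.07 (adjusted p = 0.311), and in KO the difference was 0.08 ± 0.07. Without both libraries that stand apart these were 0.18 and 0.15.

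Slc17a6 in wild type had a log2 fold change of -0.83 ± 0.21 after novelty (adjusted p = 0.119). This comparison shares the untreated wild-type libraries with that of KO and wild type, including library 1 at 26.8 CPM, and without that library it was -0.53 with an adjusted p of 0.385. Without both libraries that stand apart it was -0.66 (adjusted p = 0.0926), and in KO it was 0.12 against 0.20 with them. For wild type, with all libraries, DESeq2 gave an adjusted p of 0.00863, the fit with no filter on counts 0.000149 and the fit with offsets 0.025. Of all genes 1.33%, 0.881% and 1.79% passed in these fits. The interaction of genotype and novelty was 1.03 ± 0.30 for Slc17a6 (unadjusted p = 0.00393, adjusted p = 1.0). Without the low-count filter its adjusted p was 0.0235, where 0.028% of all genes passed. Without both libraries that stand apart the interaction was 0.78 (adjusted p = 0.161). Over the postsynaptic genes the interaction was below 0 for all but Dlg1, where 50.6% of all genes were above 0. Their median was -0.086, and over the presynaptic genes the median was -0.014. The interaction shares the untreated libraries in which 11 of the 13 postsynaptic genes were above 0 in KO, so these signs are not a separate observation. With both libraries that stand apart left out the postsynaptic and presynaptic medians were 0.016 and 0.065. In that fit Pclo passed at -0.65 with an adjusted p of 0.0357, where 2.0% of all genes passed.

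The synaptic genes show the 2 libraries that stand apart well. The deviation of a library is its log2 CPM minus the mean of the other 2 libraries of its group, and its SD over the 32 genes was 0.29 in wild-type novelty library 1 and 0.28 in KO novelty library 2. In the other 16 libraries it was 0.06 to 0.20. Snap25 was at 1370 CPM in wild-type novelty library 1 and at 2000 and 2080 CPM in the other two. Pclo was at 579 CPM in KO novelty library 2 and at 295 and 276 CPM in the others.

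The 2 libraries deviated in opposite directions, with opposite signs for 28 of 32 genes and a Pearson r of -0.75 over the 32 genes, which share the libraries and their base composition. In wild-type novelty library 1 the 14 genes with under 50% GC in their longest transcript had a median deviation of -0.21, and the 18 others had 0.22. In KO novelty library 2 the medians were 0.18 and -0.09. The deviations correlated with GC content at r = 0.78 and r = -0.60, across genes and as a description. This correlation is not particular to them: it ran from -0.76 to 0.81 in the other libraries, which deviated less in size. The lowest, -0.76, was in wild-type novelty library 2, which is set against a mean that includes library 1. Such values within a group depend on each other. In the 4 groups without novelty the correlation ran from -0.65 to 0.81. The median coefficient of variation of the genes was 10.2% in wild type and 7.9% in KO after novelty, and 3.02 to 5.13% in the other 4 groups.

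**Figure D5:**
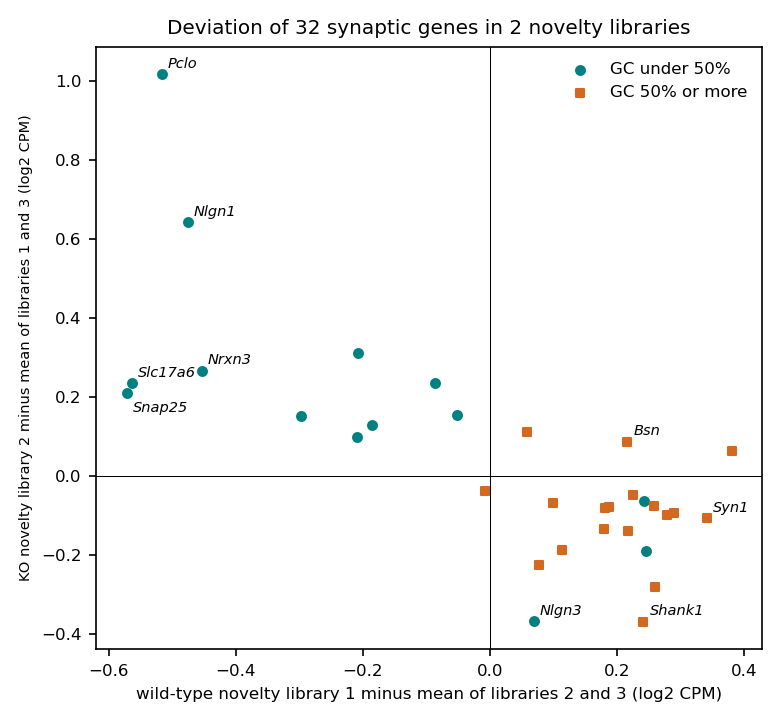
Deviation of wild-type novelty library 1 (horizontal) and of KO novelty library 2 (vertical) from the mean of the other 2 libraries of their group, in log2 CPM, for the 32 genes (points), coloured by GC content of the longest transcript. Genes under 50% GC, among them Pclo and Snap25, lie mostly at the upper left, and 28 of 32 genes have opposite signs in the 2 libraries.

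Other genes of the synapse were read from lists of 43 vesicle and release genes, 39 adhesion genes and 30 postsynaptic scaffold genes. In the reported fit the adhesion list had no gene past the test in any comparison. Its medians were 0.006 for KO untreated, 0.033 for KO with novelty and 0.013 for ifKO. Of the 43 vesicle and release genes, 1 fell in untreated KO (1.24% of all genes passed), while 1 rose after novelty in the KO comparison (1.34%) and 1 in ifKO (0.645%). Of the 30 postsynaptic genes, 1 fell in KO after novelty (1.34%), and 1 rose after novelty in wild type (0.384%). In untreated KO 24 of the 30 postsynaptic genes were above 0, against 50.5% of all genes, with a median of 0.083, and after novelty 10 were, against 50.6%, with a median of -0.029. Without both libraries that stand apart 16 of these 30 were above 0 after novelty, with a median of 0.01, and the adhesion median was -0.008. In that fit 3 vesicle and release genes rose in KO after novelty, where 4.26% of all genes passed. In the same comparison 2 adhesion genes and 1 postsynaptic gene fell. With novelty in wild type, where 2.72% of all genes passed, 5 postsynaptic genes rose and 2 vesicle and release genes fell. There 1 adhesion gene rose and 1 fell. In the interaction 3 vesicle and release genes were higher and 1 lower, and 1 adhesion gene was higher and 4 lower. It also called 3 postsynaptic genes, all lower, and 2.0% of all genes passed.

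Doc2a, a calcium sensor of spontaneous and asynchronous release, rose in KO after novelty and in ifKO. It measured 18.1, 11.7 and 11.6 CPM in wild type, against 22.0, 24.8 and 23.1 CPM in KO after novelty (0.75 ± 0.14, adjusted p = 0.0128). In the inducible line it measured 12.3, 13.2 and 14.0 CPM in control, against 17.9, 17.4 and 18.8 CPM in ifKO (0.45 ± 0.07, adjusted p = 0.00902). Between untreated KO and wild type Doc2a did not pass, at 0.37 ± 0.14 (adjusted p = 0.403). Over both treatments it rose by 0.56 ± 0.10 (adjusted p = 0.00465), a call kept in every alternative run. The call after novelty was lost without wild-type novelty library 2 or 3 and when only the 2 groups were fitted, and that in ifKO without control library 2. Without both libraries that stand apart Doc2a was at 0.95 in KO after novelty (adjusted p = 1.39e-05) and 0.66 over both treatments (adjusted p = 2.65e-06). In that fit it fell with novelty in wild type (-0.47, adjusted p = 0.00802), where 2.72% of all genes passed. Its interaction was 0.59 (adjusted p = 0.0357), where 2.0% passed. Of the exon bases of Doc2a 39.4% lie opposite Ino80e, which differed by -0.20 in KO after novelty and by -0.08 in ifKO.

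Syt2, the fast calcium sensor of vesicle fusion found in many inhibitory terminals, fell in untreated KO. It measured 41.2, 33.8 and 29.1 CPM in wild type, against 22.7, 19.5 and 22.1 CPM in KO (-0.69 ± 0.12, adjusted p = 0.0083). Every alternative kept the call in this comparison. Between KO and wild type after novelty Syt2 did not pass, at -0.33 ± 0.12 (adjusted p = 0.334). Over both treatments it fell by 0.51 on the log2 scale (adjusted p = 0.00309). Without both libraries that stand apart these were -0.32 (adjusted p = 0.183) and -0.5 (adjusted p = 0.00308). In ifKO Syt2 differed by 0.11 ± 0.07, and the difference between the 2 mutants, untreated, was -0.79 ± 0.15 with an adjusted p of 0.0539. The summed level of 10 inhibitory neuron markers was 822 to 897 CPM in untreated wild type, against 709 to 799 CPM in untreated KO. Gad1, Slc32a1, Pvalb and Calb2 were lower in all KO libraries, as 9.35% of all genes were. Gad2, Sst, Vip, Npy, Reln and Lhx6 overlapped between the groups. The part of this list in the Syt2 result was not tested. Sv2c, a vesicle glycoprotein, fell over both treatments (-0.26 ± 0.06, adjusted p = 0.022), a call lost in 5 of 12 fits with 1 library left out. Without both libraries that stand apart it was at -0.3 (adjusted p = 0.0043).

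Sipa1l2, of a family of postsynaptic Rap regulators, fell in KO after novelty. It measured 101, 96.9 and 95.4 CPM in wild type, against 70.0, 75.4 and 76.2 CPM in KO (-0.40 ± 0.06, adjusted p = 0.0037), and the call was lost when only these 2 groups were fitted (adjusted p = 0.0808). Over both treatments it fell by 0.34 on the log2 scale (adjusted p = 0.000496), in every alternative, and in ifKO it differed by -0.08 ± 0.05. Without both libraries that stand apart it was at -0.4 after novelty (adjusted p = 0.00606) and -0.33 over both treatments (adjusted p = 0.000361). Baiap2, an actin regulator of spines, rose after novelty in wild type, from 294, 300 and 287 CPM to 378, 364 and 394 CPM (0.37 ± 0.07, adjusted p = 0.0476). That call was lost whenever 1 of the 6 libraries was left out, and also with RLE factors, with the replicate block and when only these 2 groups were fitted. The other 4 of 7 alternatives kept it, among them the fit without both libraries that stand apart, at 0.37 (adjusted p = 0.00636). Over both genotypes Baiap2 rose by 0.27 ± 0.05 (adjusted p = 0.0179) and Sipa1l2 by 0.23 ± 0.04 (adjusted p = 0.0257). These calls were lost in 8 and 7 of 12 fits with 1 library left out, and that of Sipa1l2 also with the replicate block. Without both libraries that stand apart they were 0.31 (adjusted p = 0.00135) and 0.21 (adjusted p = 0.0224).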

How the data were processed

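Raw counts per gene were deposited by the authors, 1 file for each of 18 libraries (24 sample records, of which 6 describe second reads). The submitters' processing notes name GRCm38, HTSeq 0.6.1, STAR 2.5.0c, DESeq2 and SAMtools 1.3, and the labels' protocols describe stranded libraries. The sources used here do not say how strand was treated in counting or which annotation was used. Symbols, exons and transcripts came from GENCODE M21, which named 46488 of 47069 gene IDs. Summary lines were left out: reads in no feature were 14.7 to 17.2%.

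Counts were analysed with edgeR 4.0.16 in R 4.3.3: TMM scaling, filterByExpr (minimum count 10, minimum total 15), quasi-likelihood tests, and Benjamini-Hochberg adjustment over all tested genes at 0.05. The 12 libraries of the constitutive line were fitted together (16392 genes), the 6 of the inducible line alone (17367 genes), and all 18 for the difference between the mutants (17508 genes). Log2 fold changes carry a prior count of 0.125, ± is 1 SE, and CPM use TMM factors with ± 1 SD of 3 libraries. At 156 or more counts per gene and library the counting error was at most 7.63% of a level, and it was at least as large as the spread between libraries in 13 of 192 combinations of gene and group, among them Syn3 and Slc17a6 in ifKO.

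The members, lists and tests were chosen with earlier results of these data known. All 32 genes were to be accounted for, with each library's value for any that passed the test, any separated in both treatments in 1 direction, and Slc17a7, Snap25, Bsn, Nlgn1, Dlg4, Shank3 and Nrgn. From the other lists up to 3 genes per direction and comparison with adjusted p under 0.05 were named. Slc17a6, Pclo, Homer3, Homer2, Syn1, Nlgn3, Unc13a and Shank2 were singled out after their values were seen.

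Each fit was repeated with RLE factors, with DESeq2 1.42.0, with no filter on low counts, with a replicate block, with GC and length offsets (splines with 5 df), with only the 2 groups compared, without each library in turn and without both deviating novelty libraries. The fits were tested on simulated counts. Replicates differed by more than counting noise in every group.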

Additional observations from a re-analysis of the deposited data

How the results depend on the processing

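None of the 32 genes was called in the reported fit, so no call could be lost or reversed. In the alternatives 15 of 4256 values of single genes passed the threshold that the reported fit did not pass. Medians of the lists stayed within the spread in 351 of 399 values. Counts of all called genes moved more. Without the low-count filter 347 genes passed in untreated KO (266 higher, 81 lower), 252 for novelty in wild type, 101 for novelty in KO, 415 for novelty over both genotypes, 8 for the interaction, 398 in ifKO (322 higher, 76 lower) and 83 for the difference between the mutants, and 1, 1, 0, 0, 1, 3 and 0 of the 32 genes did. With GC and length offsets 351 passed in untreated KO, 361 between KO and wild type after novelty, 789 over both treatments, 294, 53 and 625 for novelty in wild type, in KO and over both, and 35 for the difference, with 1 of the 32 in each of the first 4 named. DESeq2 called 218, 70 and 429 for novelty in wild type, KO and both and 46 for the difference, and 1 of the 32 in untreated KO and for novelty in wild type. Fitting only the 2 groups gave 318 in untreated KO, 104 for KO against wild type after novelty, and 6 and 10 for novelty in wild type and KO. With both deviating novelty libraries left out 705 passed in KO after novelty (406 higher, 299 lower), 703 over both treatments, 451, 63 and 454 for novelty in wild type, KO and both, and 331 for the interaction (29 higher, 302 lower), with 1 of the 32 for KO after novelty and 1 for the interaction. In the last the cause of the surplus was not tested, as for the other counts.

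With 1 library left out the counts ran from 121 to 149 in untreated KO, 144 to 282 in KO after novelty, 357 to 510 over both treatments, 4 to 102 for novelty in wild type, 1 to 10 in KO, 91 to 298 over both genotypes, 0 to 0 for the interaction, 56 to 102 in ifKO and 18 to 23 for the difference. Of the 32 genes 0 to 1 passed for novelty over both genotypes and 0 to 0 in the others. The lowest count for novelty in wild type was without wild-type novelty library 3 and the highest without library 1. The replicate block gave 33 calls for novelty in wild type and 6 in KO, and it moved no other count by over 1.5 times. Same-numbered libraries did not correlate above 0.1 in every pair of any comparison, and the number of libraries that correlated best with their own number was 0, 4, 0, 4 and 0 of 6, so the numbers were not taken to pair the libraries.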

Other observations

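Levels of several synaptic genes differed between untreated wild type of the constitutive line and control mice of the inducible line. Pclo was at 285 ± 32.2 CPM (SD, n = 3) in untreated wild type of the constitutive line and at 470 ± 10.3 CPM in control mice of the inducible line. Nrgn was at 635 ± 63.6 and 500 ± 33.4 CPM, and Slc17a7 at 1250 ± 33.6 and 1010 ± 25.0 CPM. TMM factors were computed within each line, so these levels are not on a common scale. The line, its background, the read type and the flowcell cannot be told apart, and no test was made.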
